A study of Mus musculus with 5 samples.

Results

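Myh11+Lmod1+ cells of mouse liver were cells in which RNA of several smooth muscle contractile genes was found together. A cell was counted as a member when it held 2000 or more unique molecular identifiers (UMIs, each tagging 1 captured RNA molecule), at least 1 UMI of 3 or more of the 5 genes Myh11, Cnn1, Actg2, Pln and Lmod1, and 0 UMIs of the endothelial gene Pecam1 and the leukocyte gene Ptprc. The members were thus chosen by their own measured UMIs of these genes, whose values are given only as a description. Myh11 encodes the smooth muscle myosin heavy chain, Cnn1 calponin 1, Actg2 an actin of visceral smooth muscle, Lmod1 an actin filament nucleator of smooth muscle and Pln phospholamban, an inhibitor of the calcium pump of the sarcoplasmic reticulum. The rule took in 678 of the 13267 cells in the 3 VitA- libraries, of 24007 cells in all 5 libraries of the series. They were set beside 3163 comparator cells, which had 2000 or more UMIs, a summed level of the mesenchymal genes Dcn, Col3a1 and Colec11 of 20 or more UMIs per 10000, and 0 UMIs of each of the 5 rule genes.

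The cells came from male C57BL/6J mice carrying the Rosa26mTmG reporter and Col1a1-Cre, in which green fluorescence marks a cell whose Col1a1 promoter had been active, at that time or earlier. Non-parenchymal liver cells were sorted by this reporter and by the autofluorescence of vitamin A, the store of hepatic stellate cells (HSC), and the VitA- gates therefore held cells below the vitamin A threshold. In the DEN+WAD groups, diethylnitrosamine (DEN, a liver carcinogen) had been injected at 10 mg/kg at 2 weeks of age and a liquid Western alcohol diet (WAD) with 3.5% ethanol had been fed for 5 months from 6 weeks of age, while chow mice had received saline and chow. Each group, VitA-Col1a1+ DEN+WAD, VitA-Col1a1+ chow and VitA-Col1a1- DEN+WAD, was 1 library, the number of animals behind a library was not given in the sources used here, and so no p-value was made and treatment and library cannot be told apart.

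Smooth muscle and pericytes are the mural cells of blood vessels. Their contraction depends on calcium entry, phosphorylation of the myosin light chain, and thin filaments anchored in dense bodies, under transcription factors of the SRF and myocardin family that bind the CArG box. In the liver, such cells lie in the walls of portal and hepatic vessels, HSC are the pericytes of the sinusoid, and both cell types can turn on contractile genes.

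Members made up 117 of 2623 cells of 2000 or more UMIs in VitA-Col1a1+ DEN+WAD (4.46%, exact 95% Clopper-Pearson interval 3.70 to 5.32), 143 of 647 in VitA-Col1a1+ chow (22.1%, 19.0 to 25.5) and 418 of 8431 in VitA-Col1a1- DEN+WAD (4.96%, 4.50 to 5.44). The share in chow was the highest, and the intervals of both DEN+WAD libraries overlapped. Of the 2158, 606 and 4500 cells of 2000 or more UMIs that reached the mesenchymal level asked of comparators, members made up 5.42%, 23.3% and 9.24% in the same order, leaving out the 4 members below that level. These intervals, like all others given here, cover counting error only, and a share depends on the sort and on the number of cells loaded. The same rule found 17 of 10309 cells (0.165%) in VitA+Col1a1+ DEN+WAD and 0 of 255 in VitA+Col1a1+ chow, where a floor of 3 cells allows a share of up to 1.18% and the Clopper-Pearson upper limit is 1.44%. Another 6, 4 and 49 cells of the 3 VitA- libraries showed 3 or more of the 5 genes and were left out for a UMI of Pecam1 or Ptprc. Members were not shallow cells, with a median of 20095 UMIs in VitA-Col1a1+ DEN+WAD, 21639 in chow and 15399.5 in VitA-Col1a1- DEN+WAD, against 16403.5, 21930 and 10109 in comparators. Pairs of the 3 VitA- libraries shared the barcodes of 1 to 5 cells, 1 of them a member in one of its libraries, and 1 chow member and 2 members of VitA-Col1a1- DEN+WAD had a barcode that was also used in VitA+Col1a1+ DEN+WAD.

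The rule was meant for vascular smooth muscle cells, the labels call the cells of every library hepatic stellate cells, and the members carried defining genes of both. Myh11 and Lmod1 were found together in 117 of 117, 143 of 143 and 416 of 418 members of VitA-Col1a1+ DEN+WAD, VitA-Col1a1+ chow and VitA-Col1a1- DEN+WAD (libraries are given in this order throughout), and Actg2 in 88.9%, 93.0% and 84.9%. Cnn1 was found in 40.2%, 50.3% and 38.5%, and Pln in 0, 6 and 6 cells. Genes of the mesenchymal cut were as widespread, and 117 of 117, 141 of 143 and 416 of 418 members passed it as well, with a median summed level of 139, 100 and 169 per 10000 against 2.44, 0.576 and 1.32 in endothelial cells of the same libraries. The endothelial cells had been chosen with a summed level under 5 per 10000, so their low value was set by that choice. Lrat, the enzyme that esterifies vitamin A and a marker of HSC, was found in 85 (72.6%), 92 (64.3%) and 380 (90.9%) members. Because the myosin and leiomodin genes were the ones nearly all members shared, the cells are called Myh11+Lmod1+ cells here.

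Smooth muscle genes that the rule did not use were found in members as well. Acta2 (smooth muscle alpha actin, chr19:34241090-34255590 of GRCm38) reached 5547 CPM (5456 to 5638) of summed UMIs in members of VitA-Col1a1+ DEN+WAD, 4818 CPM (4743 to 4894) in chow and 5358 CPM (5303 to 5414) in VitA-Col1a1- DEN+WAD, where CPM is UMIs of the gene per 1000000 UMIs and the brackets hold an exact Poisson 95% interval. The comparators of the same libraries had 50.2 CPM (47.1 to 53.5), 39.2 CPM (28.4 to 52.8) and 219 CPM (213 to 226). Acta2 was found in 100%, 97.9% and 99.8% of members, and still in 94.9%, 93.0% and 95.2% after each cell had been thinned at random to 2000 UMIs. Free RNA set a low background for it, since thinned endothelial cells showed it in 3.44%, 0% and 2.97% of cells. Of the other markers kept for this check, Tagln, Myl9 and Notch3 were found in 85.3% or more of members, Des in 95.7% or more, Synpo2 in 57.3%, 72.0% and 38.0%, Ldb3 in 23.1%, 37.8% and 20.8%, and Kcnmb1 in 29.1%, 33.6% and 46.4%. Smtn was found in 71.8%, 81.8% and 77.5%. Comparators often showed Tagln (84.0%, 88% and 72.3%), Myl9 (68.9%, 84% and 47.6%), Des (95.3%, 96% and 74.1%) and Smtn (66.2%, 74% and 48.9%). They less often showed Notch3 (9.19%, 24% and 15.2%), Synpo2 (8.66%, 22% and 14.7%), Ldb3 (1.41%, 2% and 1.67%) and Kcnmb1 (0.530%, 2% and 2.93%). Myocd, which encodes the smooth muscle coactivator myocardin, was found in 24.8%, 32.9% and 4.31% of members, against 0.0883%, 0% and 0.101% of comparators.

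**Figure D1:**
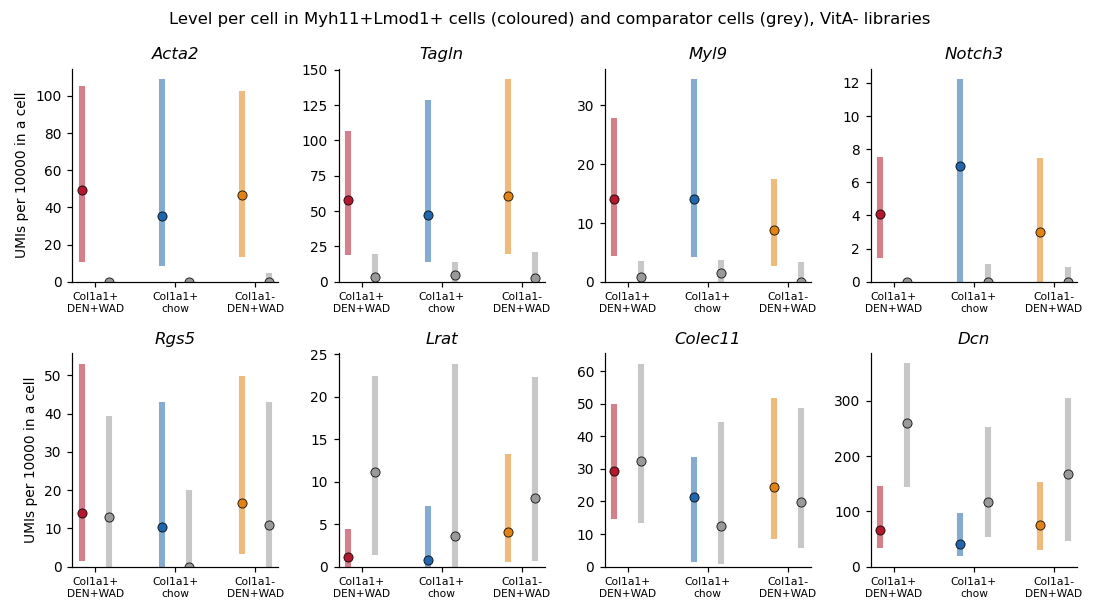
Level of 8 genes per cell (UMIs per 10000, linear axis from 0) in Myh11+Lmod1+ cells (coloured) and comparator cells (grey) of the 3 VitA- libraries, where the dot is the median over cells and the bar runs from the 10th to the 90th percentile. Acta2, with medians of 49.3, 35.5 and 46.8 in members and 0 in comparators, is separated from them, while Colec11, which counted towards the comparator cut, overlaps and Lrat is lower in members.

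Cell by cell, Acta2 ran from 0.353 to 175 UMIs per 10000 over the 117 members of VitA-Col1a1+ DEN+WAD (median 49.3), from 0 to 222 in chow (median 35.5) and from 0 to 169 in VitA-Col1a1- DEN+WAD (median 46.8). The comparators had a median of 0 and a highest cell of 44.7, 3.33 and 64.8, and 66 of 117, 136 of 143 and 136 of 418 members lay above it. The groups of cells thus overlapped in each library, most in the one labelled Col1a1-. Colec11, a collectin made by HSC and other liver mesenchyme, had medians of 29.5, 21.4 and 24.6 in members against 32.4, 12.4 and 19.9 in comparators, but its level counted towards the cut that defined comparators. Dcn, the collagen-binding proteoglycan decorin, counted towards the same cut, and its member medians of 67.0, 41.5 and 76.2 were below theirs of 261, 117 and 167.

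Members were then compared with comparators within each library, gene by gene, from UMIs summed over cells. A gene was counted as 2-fold or more higher or lower in members when the ratio of CPM, after 5 CPM had been added to both classes, was at least 2 in that direction, among genes of 10 CPM or more in at least 1 class. The rule that chose the cells used this contrast, so these counts and ratios describe the cells and test nothing. Of all genes tested, 5.94%, 5.99% and 3.87% were higher in members and 4.16%, 4.63% and 5.48% were lower, and 161 of 7951 (2.02%) were higher and 124 (1.56%) lower in all 3 libraries. The median log2 ratio over all genes tested was 0.04, 0.07 and -0.08. Ratios printed below are log2 of the plain CPM ratio with a conditional binomial 95% interval. Comparators had not been freed of cells with Pecam1 or Ptprc, and in VitA-Col1a1- DEN+WAD their endothelial genes summed to 737 CPM and their leukocyte genes to 810.005 CPM, against 88.6 and 114 CPM in members. The calls of lower genes there rest in part on this, since 308 rather than 481 were lower when comparators with either gene were left out.

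The contractile filament genes were higher in members in every library. Of 24 listed genes, 23 were tested in all 3 libraries, of which 12 were 2-fold or more higher in each and 0 lower, with a list median log2 ratio of 1.09, 1.38 and 1.37. Tagln (transgelin, an actin-bundling protein) stood at 6299.9, 5921 and 7401 CPM in members and 802, 659 and 810.1 in comparators, a log2 ratio of 2.97 (2.94 to 3.0), 3.17 (3.06 to 3.28) and 3.19 (3.17 to 3.22). Myl9 (the regulatory light chain of smooth muscle myosin) stood at 1462, 1663 and 964 CPM against 143, 165 and 115. Acta2 had the widest separation of the list, with log2 ratios of 6.79 (6.69 to 6.88), 6.94 (6.51 to 7.41) and 4.61 (4.57 to 4.65). The tropomyosins Tpm1 and Tpm2, which lie along the actin filament, had log2 ratios of 2.75, 3.51 and 2.73 and of 3.79, 3.58 and 3.37. The others higher in all 3 libraries were Myl6, Cald1, Cnn2, Flna, Vcl and the myosin phosphatase genes Ppp1r12b and Ppp1r14a, between 1.11 and 2.07. Mylk, the kinase that starts contraction, was well expressed in both classes, at 881, 1248 and 1190.3 CPM in members and 439, 538 and 525 in comparators, and the thin filament gene Smtn was within 2-fold in each library with 0.16, 0.52 and 0.80.

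The CArG box, the motif that SRF binds (searched by its consensus on both strands), was looked for from 250 bases before to 50 after each gene start of the RefSeq annotation of GRCm38.p6, since the contractile genes were higher together and many are known SRF targets. It was present for 488 of 27025 genes (1.81%). Among the contractile filament genes it was found for 4 of the 22 with a window (Myl9, Cnn2, Vcl and Myl6), and among the cytoskeleton and dense body genes for 4 of 16 (Ldb3, Dmd, Fhl1 and Filip1l). Acta2, Tagln, Tpm1 and Tpm2 were not among the genes found with it. Among the calcium, channel and cyclic GMP genes it was found for 1 of 18 (Trpc6). Of the HSC genes listed it was found for 0 of 12, and of the rule genes for 0 of 3 (Cnn1, Lmod1 and Pln). These windows hold the letters of the motif, and whether it was bound in these cells was not measured. The 4 windows below are examples from the filament and dense body lists, each of a gene 2-fold or more higher in members of every library, with the CArG box in capitals. Ldb3 has a second window that overlaps the one shown and holds the same box, and the windows of Myl6, Dmd, Fhl1, Filip1l and Trpc6 are not shown.
Myl9, chr2:156775214-156775513, plus strand, box starting 161 bases before the gene start: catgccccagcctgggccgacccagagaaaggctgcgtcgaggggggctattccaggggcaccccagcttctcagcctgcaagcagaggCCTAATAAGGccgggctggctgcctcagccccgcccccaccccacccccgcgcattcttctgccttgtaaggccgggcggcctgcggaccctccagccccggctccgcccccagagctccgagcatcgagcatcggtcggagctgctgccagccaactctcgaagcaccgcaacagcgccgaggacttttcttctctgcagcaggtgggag
Cnn2, chr10:79988350-79988649, plus strand, box starting 56 bases before the gene start: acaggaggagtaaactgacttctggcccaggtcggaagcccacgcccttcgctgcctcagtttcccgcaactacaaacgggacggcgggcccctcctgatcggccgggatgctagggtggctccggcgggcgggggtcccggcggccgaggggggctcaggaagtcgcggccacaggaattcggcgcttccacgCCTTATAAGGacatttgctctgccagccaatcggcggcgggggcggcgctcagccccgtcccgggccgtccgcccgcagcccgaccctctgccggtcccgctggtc
Vcl, chr14:20929148-20929447, plus strand, box starting 227 bases before the gene start: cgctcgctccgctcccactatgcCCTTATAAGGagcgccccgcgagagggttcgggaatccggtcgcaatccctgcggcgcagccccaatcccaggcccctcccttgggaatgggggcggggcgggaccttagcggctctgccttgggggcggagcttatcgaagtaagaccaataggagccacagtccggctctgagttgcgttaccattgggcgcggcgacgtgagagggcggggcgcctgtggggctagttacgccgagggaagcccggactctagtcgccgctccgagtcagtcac
Ldb3, chr14:34588632-34588931, minus strand, box starting 35 bases before the gene start: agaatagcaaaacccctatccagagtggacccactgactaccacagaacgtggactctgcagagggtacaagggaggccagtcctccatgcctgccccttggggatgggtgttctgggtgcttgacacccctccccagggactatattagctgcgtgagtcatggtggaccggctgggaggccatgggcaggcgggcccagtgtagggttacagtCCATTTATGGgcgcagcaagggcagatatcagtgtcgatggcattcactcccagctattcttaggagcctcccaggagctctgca

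For the genes of these windows, members of the 3 libraries held 360.0, 295 and 348 CPM of Cnn2 (calponin 2) against 101, 111 and 109 in comparators, and 367, 335 and 764 CPM of Vcl (vinculin, which links actin to the membrane) against 170.2, 139 and 251. Ldb3, which encodes a protein of the Z-disc and dense body, was a low gene at 16.9 CPM (12.3 to 22.7), 24.9 CPM (19.8 to 30.9) and 18 CPM (14.9 to 21.5) in members. Its level in comparators was 1.04, 0.912 and 1.51 CPM, from 20, 1 and 33 UMIs, so that the chow ratio rested on a single UMI.

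Dense body and cytoskeleton genes followed the filament genes. Of 20 listed, 17 were tested in all 3 libraries, with 9 higher, 0 lower, and a list median of 1.36, 1.68 and 1.27. Nexn, an actin-binding protein, was at 245, 297 and 240.3 CPM against 61.4, 81.2 and 60.1, and Dmd (dystrophin) at 172, 208 and 181 against 46.8, 54.7 and 53.4. Pdlim3, a partner of alpha-actinin, was highest in chow members, at 135, 333 and 46.2 CPM, with comparators at 6.02, 41.0 and 9.47. Sorbs2, an adaptor at focal adhesions, had log2 ratios of 8.05 (6.66 to 9.95), over 4 comparator UMIs, and 4.60 (4.24 to 4.97) in the DEN+WAD libraries, and in chow, where comparators had 0 UMIs, it was at least 11.9-fold higher by the floor of 3 UMIs. Des, the intermediate filament protein of muscle and also a marker of rodent HSC, was at 480.0, 476 and 464 CPM in members and 291, 295 and 189.7 in comparators, past 2-fold only in VitA-Col1a1- DEN+WAD of the 3 libraries.

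Fewer of the genes of calcium handling and of the cyclic GMP pathway, which relaxes smooth muscle, separated the classes. Of 24 listed, 14 were tested in all 3 libraries and 4 were higher (Kcnmb1, Cacna1c, Mrvi1 and Pde5a), with 0 lower. Kcnmb1, the beta subunit of the calcium-activated potassium channel, stood at 28.5, 32.9 and 51.4 CPM against 0.311, 0.912 and 3.11, and Cacna1c, the pore of the L-type calcium channel, at 20.8, 43.0 and 22.5 against 0.882, 5.47 and 3.84. Gucy1a1, a subunit of the nitric oxide receptor, was within 2-fold in each library, with log2 ratios of 0.53, 0.38 and 0.51. Among 18 vasoactive receptors tested, 0 were higher in all 3 libraries and Calcrl and F2r were lower, the former at 19.2, 12 and 32.9 CPM against 200.2, 112 and 137. Members did express such receptors, with Ednrb (endothelin receptor B) at 700.3, 872 and 482 CPM and Agtr1a (angiotensin II receptor) at 170.4, 111 and 192, beside 543, 419 and 314 and 346, 156 and 189 in comparators.

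Of 18 transcription factors tested in all 3 libraries, Ebf1 and Prrx1 were higher and Lhx2 was lower. Ebf1 was at 391, 380.0 and 173 CPM in members against 10.1, 72.0 and 16.3, and Prrx1 at 236, 250.4 and 238 against 21.4, 53.8 and 75.2. Lhx2, a factor of quiescent HSC, was at 43.1, 40.6 and 60.6 against 306, 143 and 156. Srf itself was within 2-fold in each library, with log2 ratios of 0.01, 0.27 and 0.94, the last of them close to 2-fold. Myocd was below the 10 CPM minimum in VitA-Col1a1- DEN+WAD (3.57 CPM), while it stood at 17.7 CPM (13.0 to 23.6) and 32.9 CPM (26.9 to 39.7) in the other libraries. In the Notch pathway, which connects mural cells with endothelium, the receptor Notch3 (chr17:32120820-32166852 of GRCm38) was at 411, 618 and 321 CPM against 7.83, 22.8 and 24.1, log2 ratios of 5.71 (5.47 to 5.97), 4.76 (4.20 to 5.39) and 3.74 (3.60 to 3.88). Its ligand Jag1 was also higher, at 218, 261 and 119 against 50.0, 54.7 and 37.9, and the effector gene Hes1 was lower, at 793, 768 and 605 against 2187, 2190.3 and 1327.

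**Figure D2:**
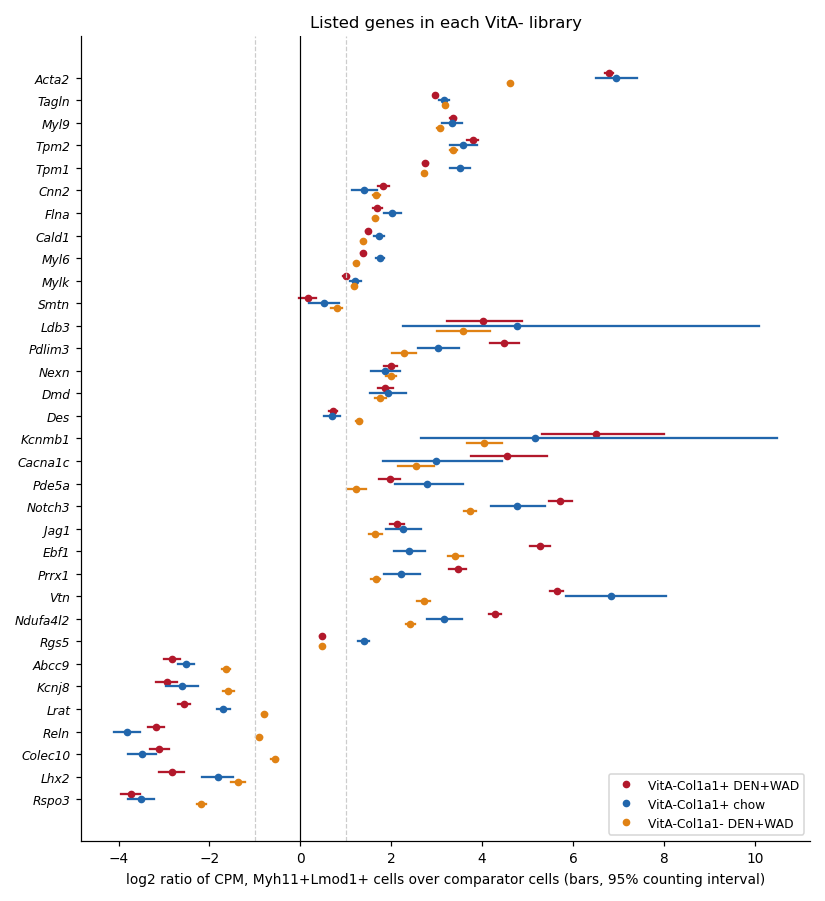
Log2 ratio of CPM, Myh11+Lmod1+ cells over comparator cells, for 33 genes in each VitA- library (coloured dots, bars are 95% counting intervals, dashed lines mark 2-fold). Contractile genes, Notch3, Ebf1 and Vtn lie to the right, Lrat, Reln, Colec10, Abcc9 and Kcnj8 lie to the left, and the HSC genes are closest to 0 in VitA-Col1a1- DEN+WAD.

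Pericyte genes went both ways. Of 12 tested, 6 were 2-fold or more higher in all 3 libraries (Cspg4, Mcam, Higd1b, Cox4i2, Vtn and Ndufa4l2) and 2 lower (Kcnj8 and Abcc9, which together form a potassium channel of pericytes). Vtn, the adhesion protein vitronectin (chr11:78499091-78502324 of GRCm38), was at 1223 CPM (1181 to 1266), 829 CPM (798 to 861) and 191 CPM (181 to 202) in members and 24.5, 7.29 and 29.2 in comparators. Ndufa4l2, a mitochondrial protein, was at 628, 482 and 364 CPM against 32.4, 53.8 and 67.9, and Mcam, an adhesion receptor, at 233, 204 and 237 against 36.6, 19.1 and 42.1. Abcc9 in contrast was at 114, 132 and 210.2 CPM against 808, 756 and 652. Rgs5, a widely used pericyte marker that was also high in comparators, had log2 ratios of 0.47 (0.43 to 0.51), 1.40 (1.28 to 1.52) and 0.47 (0.44 to 0.50).

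None of the 17 HSC genes tested was higher in members in all 3 libraries and 5 were lower (Ecm1, Lhx2, Angptl6, Hgf and Rspo3). The distance depended on the library, with 13, 13 and 6 of the 17 lower and list medians of -1.99, -1.67 and -0.78. Lrat (chr3:82892579-82903973 of GRCm38) was at 189.6 CPM (173 to 207), 249 CPM (232 to 267) and 545 CPM (527 to 563) in members, against 1118, 803 and 942 in comparators, a log2 ratio of -2.56 (-2.69 to -2.43), -1.69 (-1.83 to -1.55) and -0.79 (-0.84 to -0.74). After thinning to 2000 UMIs it was found in 23.1%, 26.6% and 54.8% of members, 79.2%, 52.0% and 69.8% of comparators and 2.87%, 0% and 2.97% of endothelial cells, so that members lay between the other classes in each library. The endothelial cells had been chosen for a low summed mesenchymal level, which can lower their share. Reln, the secreted protein reelin, was at 104, 39.3 and 283 CPM in members against 941, 552 and 530.3.

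Of 12 portal fibroblast genes tested in all 3 libraries, 0 were higher and Cd34, Ly6a and Lum were lower. Lum, the proteoglycan lumican, was at 262, 372 and 283 CPM against 1223, 1255 and 1345. Thy1, a surface protein of portal fibroblasts, was at 65.8, 42.4 and 46.2 CPM in members against 4.88, 40.1 and 10.2, higher in both DEN+WAD libraries and not in chow. The lower calls of Cd34 and Ly6a in VitA-Col1a1+ DEN+WAD, and of Ly6a in chow, turned to higher log2 ratios of 0.95, 0.46 and 0.15 when cells with only 2 of the 5 rule genes were let in.

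Matrix genes were spread over several directions. Of 18 interstitial matrix genes, Col5a2, Fn1 and Postn were higher and Lum lower in all 3 libraries, with Fn1 (fibronectin) at 901, 657 and 1424 CPM against 272, 115 and 525 and Postn (periostin) at 783, 586 and 1015 against 197, 69.3 and 313. Col1a1, the gene whose promoter drove the reporter, was at 2688 CPM (2625 to 2751), 2689 CPM (2633 to 2746) and 2586 CPM (2547 to 2624) in members, and the members of the library labelled Col1a1- thus held this RNA at a similar level and showed it in 98.1% of cells. Thinned to 2000 UMIs, Col1a1 was found in 80.3%, 85.3% and 85.2% of members and in 1.72%, 2.86% and 2.27% of endothelial cells. These endothelial cells had been chosen for a low sum of mesenchymal genes that included Col3a1, which can lower this background. Of 21 basement membrane and integrin genes, Col18a1, Lama4 and Itga7 were higher in all 3 libraries and 0 lower, with Itga7, a laminin receptor of muscle, at 45.4, 51.3 and 23.8 CPM against 0.674, 4.56 and 1.01. Of 16 elastic fibre genes 0 were higher and Efemp1 was lower in all 3, at 132, 113 and 96.3 against 843, 363 and 292, while Eln (elastin) was higher in both Col1a1+ libraries and not in the other, with log2 ratios of 1.67, 1.71 and -0.47.

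Of 21 growth factor genes, Tgfb2 and Igfbp5 were higher in all 3 libraries and 0 lower. Tgfb2, a ligand that drives matrix production, was at 482, 339 and 729.5 CPM in members against 26.5, 38.3 and 72.6, and Igfbp5, which binds insulin-like growth factors, at 459, 886 and 115 against 5.14, 18.2 and 44.7. Genes outside the lists that ranked among the 15 highest over all 3 libraries were Nov, Ankrd1, Lmcd1, Aspn, Lims2 and Prss23. Nov, a matricellular protein, was at 333, 231 and 123 CPM in members against 0.726, 0 and 2.15, and Ankrd1, a muscle ankyrin repeat protein, at 204, 96.2 and 717 against 3.68, 0 and 9.38. In chow the comparators had 0 UMIs of both, which makes Nov at least 84.6-fold and Ankrd1 at least 35.2-fold higher by the floor of 3 UMIs. Prss23, a secreted protease, was at 2417, 1302 and 1331 CPM against 435, 241 and 238. The 10 lowest were Fcna, Hhip, Gja1, Alcam, Inmt, Rspo3, Ramp2, Spon2, Abi3bp and Plekha6, of which Hhip, an inhibitor of hedgehog signalling, was at 3.08, 6.45 and 0.893 CPM against 158, 124 and 50.3 and Gja1 (connexin 43) at 19.6, 25.8 and 19.1 against 184, 216 and 229.

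Stress and immune genes showed little that held in every library. Of 23 immediate early and heat shock genes, 0 were higher and Ier3 was lower in all 3, of 13 interferon and MHC genes 0 passed in either direction, and of 10 inflammatory genes Cxcl12 and Il33 were lower. Cxcl12, a chemokine of mesenchymal cells, was at 1679.5, 1451 and 652 CPM in members against 4744, 4687 and 1994. Markers of other cell types were low in members of the Col1a1+ libraries, with the 8 endothelial genes summing to 65.4 and 29.8 CPM and the 6 hepatocyte genes to 25.4 and 1.84 CPM. The 8 leukocyte genes summed to 21.5 and 116 CPM, of which Cd74, an MHC class II chaperone, made 289 of the UMIs in chow members, and their part in the chow levels was not tested. In VitA-Col1a1- DEN+WAD the hepatocyte genes were higher in members than in comparators for 5 of 6 (4155 against 741 CPM in sum). The cycling genes were higher for 3 of 4 (118 against 35.7 CPM), and their part in the ratios of that library was not tested. When cells with hepatocyte RNA of 10 or more per 10000 were left out, 284 of the 339 higher calls of that library were kept. Of its 481 lower calls 466 were kept, and 2 calls turned direction.

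**Figure D3:**
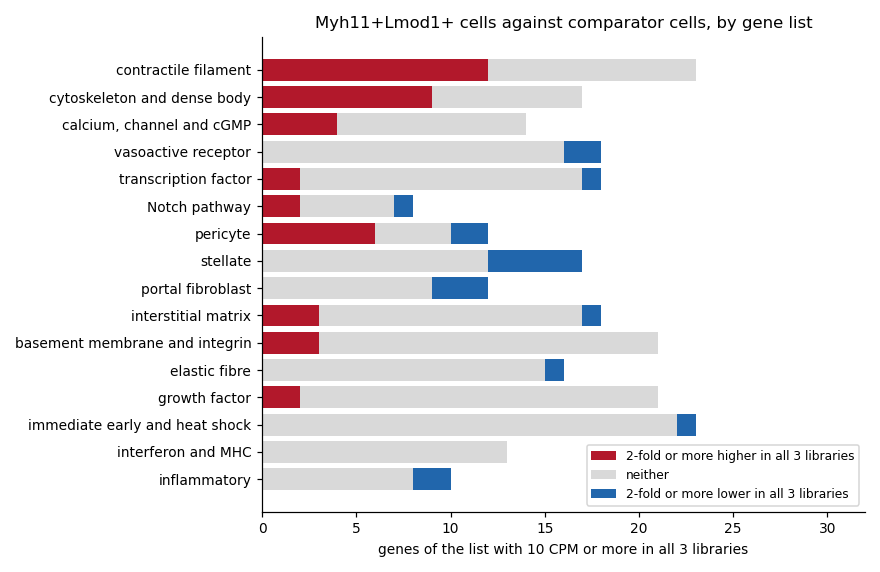
Genes of each fixed list that were tested in all 3 VitA- libraries (bar length, number of genes), divided into those 2-fold or more higher in Myh11+Lmod1+ cells in all 3 (red), neither (grey) and those 2-fold or more lower in all 3 (blue). The contractile filament list has 12 of 23 higher and the dense body list 9 of 17, the stellate list has 5 of 17 lower, and the interferon and MHC list has none in either direction.

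Acta2 was higher with each further rule gene found in a cell, up to 4, on both sides of the cut at 3. The number of rule genes is what chose the members, so these levels are a description. Among cells of VitA-Col1a1+ DEN+WAD that passed the mesenchymal cut and had 0 UMIs of Pecam1 and Ptprc, Acta2 stood at 51.6, 173, 1673, 4539 and 7914 CPM in the 1085, 529, 331, 83 and 34 cells with 0, 1, 2, 3 and 4 of the genes. Lrat stood at 1125, 452, 249, 221 and 116 CPM over the same cells, and Notch3 at 7.64, 45.4, 223, 418 and 396 CPM. Just outside and just inside the cut, Acta2 was at 411 CPM in the 237 chow cells with 2 genes and 2553 in the 80 with 3, and at 2415 in 962 and 4587 in 316 cells of VitA-Col1a1- DEN+WAD. Median UMIs were close on both sides of the cut, at 19617 and 19906 in VitA-Col1a1+ DEN+WAD, 23239 and 21860.0 in chow and 13667 and 14792 in VitA-Col1a1- DEN+WAD. From 0 to 4 genes, however, they rose from 16315 to 20260 in VitA-Col1a1+ DEN+WAD and from 9757 to 17905 in VitA-Col1a1- DEN+WAD. In chow they were 21930 with 0 genes and 20955.5 with 4. Over 0 to 4 genes, Lrat was at 1013, 755, 770.3, 623 and 369 CPM in the VitA-Col1a1- library, and Notch3 was lower with 4 genes than with 3 in all 3 libraries, so that not every gene followed the number of rule genes.

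**Figure D4:**
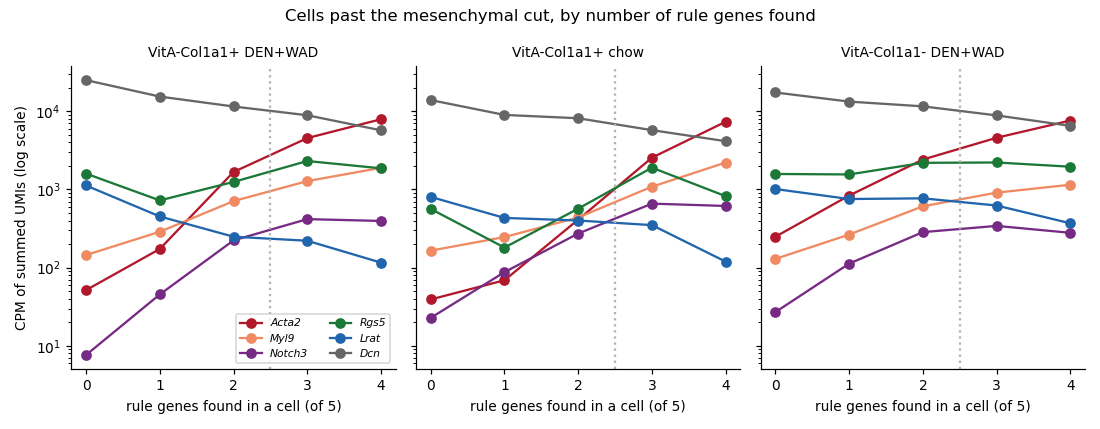
CPM of summed UMIs (log axis) of Acta2, Myl9, Notch3, Rgs5, Lrat and Dcn against the number of rule genes found in a cell, for cells past the mesenchymal cut in each VitA- library, with the cut between 2 and 3 genes dotted and points under 20 cells left out. Acta2 and Myl9 are higher with each added gene, and Lrat in VitA-Col1a1+ DEN+WAD goes from 1125 to 116 CPM.

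Members also differed among themselves. Over single members, Acta2 and Tagln went together, with a Spearman correlation of 0.80, 0.84 and 0.84, and Myh11 and Acta2 less so, with 0.47, 0.67 and 0.44. Myh11 and Lrat were related weakly and negatively, with -0.25, -0.40 and -0.18. These are descriptions over 117, 143 and 418 cells that share a library and differ in depth. In members with Lrat and in members without it, Acta2 stood at 5511 and 5665 CPM in VitA-Col1a1+ DEN+WAD, 4158 and 6159.7 in chow and 5200.4 and 7140.2 in VitA-Col1a1- DEN+WAD, so that high contractile expression and Lrat RNA occurred in the same cells. Colec11 was at 3099.8 and 2547, 2008 and 1369, and 2691 and 1429.9 CPM in the same pairs. The 10th and 90th percentiles of Lrat over members were 0 and 4.45, 0 and 7.18, and 0.498 and 13.2 UMIs per 10000.

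In chow, 15 of the 143 members (10.5%) had 0 UMIs of both Notch3 and Rgs5, against 1 of 117 and 4 of 418 in the other libraries. This split, which uses a pericyte gene, was chosen after its values were seen and is a description. The 15 cells had a median of 22770.0 UMIs, against 21267 in the other 128, a similar depth. They held more of the contractile RNA, with Myh11 at 4239.9 CPM against 1177, Acta2 at 11076 against 3990.1, Mylk at 3256 against 983 and Cnn1 at 1252 against 166. They also held Tnnt2, a troponin of striated muscle, at 3083 against 287, Npnt, the integrin ligand nephronectin, at 957 against 29.2, and Cpe, a prohormone-processing enzyme, at 623 against 92.5. Colec11 was at 113 against 2020.3 CPM. Other pericyte genes were mixed, with Vtn at 2.63 against 938 CPM, Ndufa4l2 at 7.89 against 545 and Higd1b at 0 UMIs, but Mcam at 208 against 203 and Abcc9 at 252 against 117. A level of 7.89 CPM is that of 3 UMIs over these 15 cells, so the Vtn and Ndufa4l2 levels lie at or below the counting floor. The 6 chow members with Pln also had high Myh11 (3989.9 CPM) and Mylk (4245) and low Colec11 (105) and Notch3 (19.6). The 6 members with Pln in VitA-Col1a1- DEN+WAD had 503 CPM of Myh11, 583 of Mylk, 1872 of Colec11 and 168 of Notch3, unlike those of chow.

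DEN+WAD and chow were compared between the members of the VitA-Col1a1+ libraries, 117 from DEN+WAD and 143 from chow, with the same ratio over comparators (1132 and 50 cells) beside it. Of 8762 genes tested, 1.43% were 2-fold or more higher and 2.81% lower in DEN+WAD members, against 2.37% and 5.04% of the genes tested in comparators. Most genes of the contractile filament and dense body lists were within 2-fold, and those past it were lower with DEN+WAD. Acta2 was at 5547 CPM in DEN+WAD and 4818 in chow (log2 0.20, 0.17 to 0.24), and of the 24 listed contractile filament genes 0 were higher and 2 lower (Myh10 and Smtnl2). Of 19 dense body and cytoskeleton genes tested, 0 were higher and 3 lower. Among the rule genes, which the choice of cells used, Myh11 was at 649 and 1535 CPM. Col1a1 was at a similar level in members of both libraries (log2 0.00, -0.05 to 0.04) and lower with DEN+WAD in comparators (log2 -1.55, -1.61 to -1.48). The chow comparators showed Lrat in 78% of cells and Fbln2 in 24%, against 95.5% and 4.95% in DEN+WAD. Their portal fibroblast genes summed to 7251 CPM, against 2749 in DEN+WAD. The comparators may thus differ in cell mix between these libraries, which was not tested.

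Inflammatory genes were the list with the most higher genes in DEN+WAD members, 5 of 11 tested (Ccl2, Ccl7, Cxcl10, Vcam1 and Il33), against 0 higher and 3 lower in comparators. The call of Il33 turned to a log2 ratio of -0.26 when cells with 2 of the 5 rule genes were let in. Ccl2, which attracts monocytes (chr11:82035571-82037453 of GRCm38), was at 398 CPM (374 to 423) in DEN+WAD members and 79.6 CPM (70.2 to 89.9) in chow members, a log2 ratio of 2.32 (2.12 to 2.52), and in comparators it was at 501 and 503 CPM (log2 -0.01, -0.13 to 0.12). The chow members were thus the low group of the 4 for this gene. Ccl7, a related chemokine, was at 179 and 42.7 CPM in members (log2 2.07, 1.79 to 2.35) and 135 and 376 in comparators, where the direction was the opposite (log2 -1.48, -1.63 to -1.33). Cxcl10, induced by interferon, was at 82.7 and 29.8 in members, but its log2 ratio of 1.33 with 5 CPM added became 0.30 when the 10% of members with the most UMIs was left out. Whether members and comparators differed in these ratios was not tested. In endothelial cells of the same libraries Ccl2 was at 104 and 7.88 CPM, below the members of each.

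Of 13 interferon and MHC genes, 4 were higher in DEN+WAD members (Irf7, B2m, H2-D1 and H2-K1) and 3 in comparators, with 0 lower in either. B2m, the light chain of class I, was at 4077 CPM in DEN+WAD members and 1941 in chow members (log2 1.07, 1.03 to 1.12) and had a log2 ratio of 1.02 (0.97 to 1.07) in comparators, and H2-K1, a class I heavy chain, had 1.33 (1.27 to 1.39) and 1.64 (1.56 to 1.71). H2-Q6 and H2-Q7 ranked among the 10 highest, with 2.26 and 2.06, but they are near-identical copies between which reads can be split, and their single values are uncertain. The same holds for the heat shock genes Hspa1a and Hspa1b, of which the latter was at 1621 and 454 CPM in members. Others of the 10 highest were Clca3a1 (96.5 and 12.6 CPM), P2ry14, a receptor for UDP-sugars (72.7 and 11.1), Plvap, a protein of endothelial fenestrae (782 and 171), Rgs4 (155 and 37.5) and Cadm3 (65.0 and 15.1). In comparators each of these 5 was also past 2-fold in the same direction. Plvap in members was above its level in endothelial cells of the DEN+WAD library (446 CPM) and near that of the chow library (155 CPM). The log2 ratios of these 5 in comparators lay between 1.17 and 2.31. HSC genes were higher in DEN+WAD members for 4 of 17 (Reln, Colec10, Ngfr and Pth1r) and in comparators for 5 of 17, with 0 lower in either. Reln was at 104 and 39.3 CPM in members, yet the log2 ratios of Reln and Colec10 with 5 CPM added, 1.30 and 1.04, became 0.53 and 0.46 without the 10% of members with the most UMIs. Ctgf, a YAP target and profibrotic growth factor, was at 1333 and 434 CPM in members (log2 1.62, 1.53 to 1.71) and within 2-fold in comparators (log2 0.44, 0.32 to 0.56).

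AY036118 ranked first among the 10 genes lowest with DEN+WAD. Of the others, Cpe, Tnnt2 and Sh3bgr were also high in the 15 chow cells, and Mgp, Ltbp2 and Mfap4 were elastic fibre genes. Cpe was at 10.8 CPM in DEN+WAD members and 155 in chow members (log2 -3.84, -4.45 to -3.29), Tnnt2 at 67.3 and 613 (log2 -3.19, -3.42 to -2.96), Sh3bgr at 11.2 and 84.2, and Npnt at 1.15 (3 UMIs) and 138. Members with neither Notch3 nor Rgs5 carried part of these differences. Without them, and with 5 CPM added, the log2 ratio went from -3.34 to -2.66 for Cpe, from -3.10 to -2.02 for Tnnt2, from -4.53 to -2.57 for Npnt and from -1.27 to -0.56 for Pdlim3, the last of which was then within 2-fold. Of the elastic fibre genes, 7 of 19 were lower in members (10 of 18 in comparators), and of the portal fibroblast genes 7 of 16 (11 of 15 in comparators), with 1 portal gene, Ly6a, higher in members. Mgp, an inhibitor of calcification, was at 125 and 804 CPM in members and 432 and 1557 in comparators, and its log2 ratio in members of -2.64 with 5 CPM added was -1.14 without the 10% of members with the most UMIs. Mfap4, a microfibril protein, was at 90.4 and 406 CPM in members, and Igf1, insulin-like growth factor 1, at 22.7 and 109. AY036118 and Lars2 also ranked among the lowest, with log2 ratios of -3.87 and -2.43 in members and -3.86 and -2.21 in comparators, and so differed alike in both classes of cells.

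**Figure D5:**
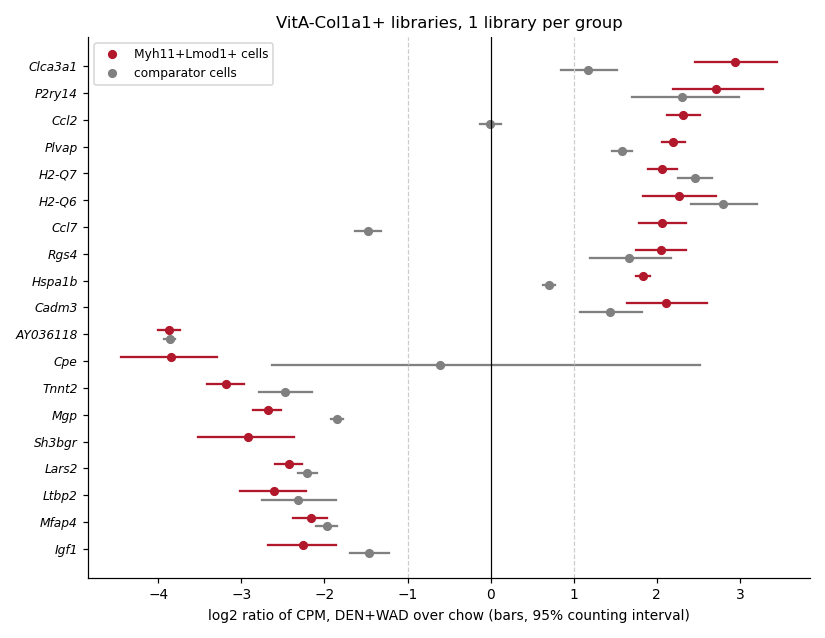
Log2 ratio of CPM, DEN+WAD over chow in the VitA-Col1a1+ libraries, for the 10 highest and 9 of the 10 lowest genes in Myh11+Lmod1+ cells (red) and the same genes in comparator cells (grey), with 95% counting intervals and dashed lines at 2-fold. Ccl2 is at 2.32 in members and -0.01 in comparators, Ccl7 has opposite signs, and AY036118 and Lars2 coincide.

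Between the DEN+WAD libraries, the 418 members of the gate labelled VitA-Col1a1- were compared with the 117 of VitA-Col1a1+, the library that also entered the comparison with chow. Of 8602 genes tested, 3.48% were 2-fold or more higher in the library labelled Col1a1- and 4.10% lower, against 4.63% and 1.65% of the genes tested in comparators. Acta2 was within 2-fold (log2 -0.05, -0.08 to -0.02), as were Col1a1 (log2 -0.06, -0.10 to -0.02) and the rule gene Myh11 (668 and 649 CPM). In comparators, by contrast, Col1a1 was higher in the library labelled Col1a1- (log2 1.29, 1.26 to 1.32), and so was Acta2 (log2 2.13, 2.03 to 2.23).

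Of 17 HSC genes, 3 were higher in members labelled Col1a1- (Lrat, Reln and Colec10) and 1 was lower (Bambi), against 0 and 4 in comparators. Lrat was at 545 CPM against 189.6 (log2 1.52, 1.39 to 1.66), Reln at 283 against 104 (log2 1.45, 1.26 to 1.64) and Colec10 at 255 against 77.7 (log2 1.72, 1.5 to 1.93). In comparators the 3 genes had log2 ratios of -0.25, -0.83 and -0.82. Of 12 pericyte genes 0 were higher and 2 lower, with Vtn at 191 against 1223 CPM (log2 -2.68, -2.77 to -2.58), and Higd1b at 11.3 against 45.4. The Notch target genes Heyl, Hey1 and Hey2 were lower too, with Heyl at 116 against 267 CPM, while Notch3 itself was within 2-fold (log2 -0.36, -0.47 to -0.25). Myocd was at 3.57 against 17.7 and Slc11a1, a metal transporter, at 4.47 against 99.2. Ccl19, a chemokine for dendritic cells and lymphocytes, was at 133 against 1163 CPM and was lower in comparators too (log2 -2.24, -2.35 to -2.12). Of 11 portal fibroblast genes tested in members, 7 were lower and 0 higher, against 0 lower and 2 higher of 13 in comparators, with Eln at 105 against 381 CPM in members and 145 against 120.1 in comparators. Basement membrane and integrin genes were more often higher than lower in both classes, 6 and 2 of 22 in members and 7 and 1 of 20 in comparators, with Col4a1 at 3603 against 1598 CPM in members (log2 1.17, 1.13 to 1.22), where comparators had a log2 ratio of 1.27 (1.24 to 1.30). Dnajb1, a heat shock cochaperone, was higher in members (log2 1.47, 1.33 to 1.62) and lower in comparators (log2 -1.53, -1.59 to -1.47), a difference that was not tested.

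Hepatocyte and leukocyte RNA moved with this comparison, in members and in comparators alike. Endothelial genes were past 2-fold in comparators only (0 of 2 tested in members) and cycling genes in members only (0 of 1 tested in comparators). The 5 highest genes were the hepatocyte genes Alb, Apoa1, Fgb, Ahsg and Serpina1b, and all 6 genes of the hepatocyte list were higher in members labelled Col1a1-, their sum being 4155 CPM against 25.4. The median member there had 2.04 hepatocyte UMIs per 10000 and the highest 1431, so that few cells held most of it, and without the 27 members at 10 per 10000 or more the log2 ratio of Alb with 5 CPM added went from 7.13 to 2.82. All 4 leukocyte genes and all 4 cycling genes tested were higher as well, the lists summing to 114 against 21.5 CPM and to 118 against 8.08 CPM. In comparators, 6 of 6 hepatocyte genes (741 against 13.9 CPM in sum), 6 of 6 leukocyte genes (810.005 against 19.5 CPM) and 6 of 7 endothelial genes (737 against 235 CPM) were higher too. Without the members with hepatocyte RNA, and with 5 CPM added, the log2 ratio was 1.56 for Lrat, -2.90 for Vtn and -3.51 for Slc11a1. The part of leukocyte and cycling RNA in these differences was not tested. Among the 5 lowest genes were Gstp1, AC160336.1, Slc11a1 and Ccl19. Of these, Gstp1 and AC160336.1 had log2 ratios of -4.59 and -5.10 in members and -4.53 and -4.60 in comparators, and the file header of the library labelled Col1a1- names another Cell Ranger version (6.1.2) than those of the other libraries (3.1.0), which cannot be told apart from the gate.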

How the data were processed

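Single-cell RNA-seq of sorted liver cells was deposited as UMI counts of 31053 genes, 1 filtered matrix per library. Per the file headers and the submitters' processing notes, the authors made these counts with Cell Ranger against mm10 (GRCm38). The version is 3.1.0 in the notes and in the headers of 4 libraries and 6.1.2 in the header of VitA-Col1a1- DEN+WAD. The kit version is given in 2 ways in the labels and was not settled. The 3 VitA- libraries held 2729 (VitA-Col1a1+ DEN+WAD), 668 (VitA-Col1a1+ chow) and 9870 (VitA-Col1a1- DEN+WAD) barcodes with 47633435, 14996899 and 105670468 UMIs in all, of which 106, 21 and 1439 barcodes under 2000 UMIs were left out. The lowest barcode of the series had 500 UMIs. The target was 10000 cells per library.

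The members and gene lists were chosen with earlier results of these data known. UMIs were summed per class and library and expressed as CPM, with exact Poisson intervals for levels, conditional binomial intervals for ratios and Clopper-Pearson intervals for shares, all at 95%. With 1 library per group and cells not being replicates, no test was run. Genes of 10 CPM or more in at least 1 class were counted past 2-fold after 5 CPM had been added. Bounds against 0 UMIs used a floor of 3 UMIs per class and library. Endothelial cells, used as background for free RNA, had Pecam1, Cdh5 and Kdr and a summed mesenchymal level under 5 per 10000. No doublet caller was run, and instead members in the top 10% by UMIs were left out as an alternative. The ratio script was tested on simulated data.

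Genes named were the 15 highest and 10 lowest by their least ratio over the 3 libraries (50 CPM or more in the higher class), the 10 highest and 10 lowest for DEN+WAD against chow, the 5 highest and 5 lowest between gates (each of 50 CPM or more and found in 25% or more of the higher members), without rule, mitochondrial, ribosomal protein and unnamed genes, and members of the 24 lists, of which those described singly were picked after their values were seen. A few genes that the rules name are not reported here. Alternatives were 2 or 4 rule genes, 5000 UMIs, TMM scaling, thinning to 2000 UMIs, means over cells, no CPM minimum, 1 CPM added and stricter comparators, and, chosen after seeing the data, leaving out members with neither Notch3 nor Rgs5 or cells with hepatocyte RNA of 10 or more per 10000. Python 3.11.15, numpy 2.4.6, scipy 1.17.1, pandas 2.3.3, matplotlib 3.10.9 and, for TMM, edgeR 4.0.16 in R 4.3.3 were used.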

Additional observations from a re-analysis of the deposited data

Results flagged for a closer look

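The values here are log2 ratios, each pair pointed in opposite directions past 2-fold in cells of 1 library per group, and the differences between the members of a pair were not tested. For DEN+WAD over chow in the VitA-Col1a1+ libraries, the chemokine gene Ccl7 stood at 2.07 in Myh11+Lmod1+ cells and -1.48 in comparator cells. Cxcl10 stood at 1.47 and -1.18 in the same order, but with 5 CPM added its member ratio of 1.33 became 0.30 without the 10% of members with the most UMIs. Col18a1, a basement membrane collagen, stood at 1.21 and -1.46. The comparator values rest on 50 chow cells.

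For the library labelled VitA-Col1a1- over VitA-Col1a1+ in DEN+WAD, Igfbp5 stood at -2.00 in Myh11+Lmod1+ cells and 3.12 in comparators, Mgp at -2.13 and 1.06, and the heat shock gene Dnajb1 at 1.47 and -1.53. Heat shock genes also stood on opposite sides for Myh11+Lmod1+ cells over comparators, with Dnajb1 at 1.5 in VitA-Col1a1- DEN+WAD and -1.54 in VitA-Col1a1+ chow, Hspa1a at 2.19 and -1.71, and Hspa1b at 2.05 and -1.67. Hspa1a and Hspa1b are near-identical copies, so that their single values are uncertain.

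Outside the VitA- libraries, 17 cells of VitA+Col1a1+ DEN+WAD passed the rule, against 0 in VitA+Col1a1+ chow. All 17 had both Myh11 and Lmod1, and their summed UMIs gave 6196 CPM of Acta2, 1760 CPM of Myl9, 195 CPM of Notch3 and 584 CPM of Lrat.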

How the results depend on the processing

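Leaving out a library was not possible, and no paired analysis was possible because each group was 1 library. Of 134 values of shares and counts of genes under other settings, 105 stayed within their limits (1.5 times for a count, the interval for a share) and 29 did not. Of 4445 values for the genes named, 2525 stayed within the counting interval, 1912 moved beyond it and 8 turned direction. Over all genes, asking for 2 rule genes kept 33.3% to 73.4% of the calls of a comparison and direction, and leaving out the top 10% of members by UMIs turned 16 calls in VitA-Col1a1- DEN+WAD, the most under any setting. The depth of single cells limits the rule itself, since a gene not found in a cell may still be expressed. Most of the movement came from the number of rule genes asked for. With 4 or more of the 5 genes, members were 1.30%, 9.74% and 1.20% of cells in VitA-Col1a1+ DEN+WAD, VitA-Col1a1+ chow and VitA-Col1a1- DEN+WAD, and with 2 or more 17.1%, 58.7% and 16.4%. With 5000 or more UMIs the last became 5.56%. Leaving out members past the mesenchymal cut left 0%, 0.309% and 0.0237%, too few cells for ratios.

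For members against comparators, genes lower in VitA-Col1a1+ DEN+WAD were 586 with 4 rule genes and 212 with 2, against 357. With 2 rule genes, chow had 327 higher and 188 lower, against 539 and 416, and VitA-Col1a1- DEN+WAD had 213 higher, against 339. With comparators freed of Pecam1 and Ptprc, 308 were lower there, against 481, and 53.1% of its calls were higher, against 41.3%. Thinning to 2000 UMIs gave 795 higher and 798 lower in VitA-Col1a1+ DEN+WAD and 1971 and 1597 in chow, where few UMIs per gene remained. For DEN+WAD against chow (125 higher, 246 lower), 4 rule genes gave 259 and 632, 2 rule genes gave 99 lower with 47.6% of calls higher against 33.7%, thinning gave 737 and 1174, and adding 1 CPM gave 401 lower. Between gates (299 and 353), 4 rule genes gave 474 higher and thinning 811 and 824. TMM scaling moved no count by 1.5 times and shifted log2 ratios by -0.0719 to 0.0899.

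The 8 reversals among named genes, on the scale with 5 CPM added, were Cd34 (0.95) and Ly6a (0.46) in VitA-Col1a1+ DEN+WAD and Ly6a (0.15) in chow with 2 rule genes, Il33 (-0.26) for DEN+WAD against chow with 2 rule genes, Lama4 (-0.086) in chow after thinning, Alb in VitA-Col1a1- DEN+WAD without members in the top 10% by UMIs (-0.88) or without cells with hepatocyte RNA (-0.24), and Sfrp1 between gates with 4 rule genes (0.35). The cause was not tested.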

Other observations

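Glial, mesothelial, cholangiocyte and globin genes were also measured in Myh11+Lmod1+ cells. Glial genes (Sox10 at 0 UMIs in all 3 VitA- libraries) summed to 1.92, 10.1 and 1.49 CPM in VitA-Col1a1+ DEN+WAD, VitA-Col1a1+ chow and VitA-Col1a1- DEN+WAD. Mesothelial genes summed to 1.15, 22.1 and 1.64 CPM, with Msln and Upk3b at 0 UMIs in each. Cholangiocyte genes summed to 6.15, 1.54 and 75.2 CPM, and globin genes to 0, 0 and 5.81 CPM.

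For 3 genes, chosen after their values were seen, the comparators differed more between the VitA-Col1a1+ libraries than the members did, a difference that was not tested. Gas6, a ligand of TAM receptors, stood at 295 CPM in DEN+WAD members and 422 CPM in DEN+WAD comparators, and at 410.4 and 2368 CPM in chow. Sfrp1, a secreted Wnt antagonist, stood at 69.6 and 75.7 CPM in DEN+WAD and 112 and 855 CPM in chow. Fbln1 (fibulin 1) stood at 126 and 77.0 CPM in DEN+WAD and 196 and 629 CPM in chow.

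Trpc6, a cation channel of smooth muscle, stood at 16.9, 2.15 and 25.5 CPM in members and 0.259, 0 and 1.69 CPM in comparators of the 3 libraries. Cycling genes were near the floor in both Col1a1+ libraries, with Top2a at 0.385 and 0.614 CPM in members, and stood higher in the library labelled Col1a1-, with Top2a at 34.7 CPM and Mki67 at 25.8 CPM. These genes were chosen after their values were seen.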
